A study of Homo sapiens with 8 samples.

Results

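The regions described here are the γH2AX peaks on the proximal long arms of chromosomes 13, 14 and 22, the parts of these chromosomes that follow their centromeres. A region was a member when its midpoint lay from 19 Mb to below 24 Mb on chromosome 13 or 14, or from 16 Mb to below 26 Mb on chromosome 22, in the human build hg19. Of 53169 regions on chromosomes 1 to 22 and X in 3 deposited peak lists, 764 were members: 157 of 9709 in the untreated list, 333 of 25671 in the cisplatin list and 274 of 17789 in the Pt-ttpy list. The cells were A2780, a human ovarian carcinoma line grown in culture. They were left untreated, or given cisplatin or Pt-ttpy for 96 hours, each at its own dose named IC80, and γH2AX-bound chromatin was then sequenced. The labels give 2 samples to each condition, and 2 of untreated input chromatin without antibody, which has no peak list here. Both samples of a condition are tied to the same list, so each condition is 1 list without replicates, and no test between conditions was possible.

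Chromosomes 13, 14 and 22 are acrocentric: the centromere lies close to one end, the very short arm carries ribosomal RNA genes and satellite repeats, and hg19 leaves that arm unassembled. The sequence where the long arm begins is rich in segmental duplications, long blocks that occur in nearly identical copies on several chromosomes, and on chromosome 22 it also holds the low-copy repeats between which recurrent deletions arise. H2AX is a variant of histone H2A, and its phosphorylated form, γH2AX, marks chromatin around DNA double-strand breaks. Cisplatin forms crosslinks within and between DNA strands. Pt-ttpy is a platinum complex that binds G-quadruplexes, the stacked structures that guanine-rich DNA can fold into. Short reads from duplicated sequence can be placed on the wrong copy, and nothing in the sources used here says how such reads were handled.

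Each value below belongs to a called region. The fold is the authors' ratio of the region's summit over the background of its own list, and the -log10 q is the peak caller's significance. In each list every distinct fold went with a single -log10 q (179 distinct folds for untreated, 184 for cisplatin and 183 for Pt-ttpy), so the folds are relative to 1 background per list and give no order between lists. Ranks below are therefore within a list. The same rank is a smaller percent of a longer list, so top percents give no order between lists either. The depth in reads is unknown. The untreated list also has a broken numbering: its peak numbers run to 18049, and 8848 of them are missing.

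Per Mb of the whole area, chromosome 14 was the densest of the 3 in every list and chromosome 13 the sparsest. Chromosome 13 had 8 regions without drug, 39 with cisplatin and 27 with Pt-ttpy. Chromosome 14 had 85, 123 and 104 in the same order of lists. Chromosome 22 had 64, 171 and 143, in an area of 10 Mb where the others have 5 Mb. Per Mb these are 1.6, 7.8 and 5.4 regions on chromosome 13, 17, 24.6 and 20.8 on chromosome 14, and 6.4, 17.1 and 14.3 on chromosome 22. For the treated lists the order of chromosomes 14 and 22 depends on the unequal lengths. The first 5 Mb of the chromosome 22 area alone held more regions of each drug than the chromosome 14 area, but fewer untreated ones. The order of the lists was the same on all 3 chromosomes, with cisplatin highest and untreated lowest. The spread between the lists was not: cisplatin held 4.88 times as many regions as untreated on chromosome 13, 2.67 times on chromosome 22 and 1.45 times on chromosome 14, where all regions of the lists stand at 2.64 times. For Pt-ttpy the ratios to untreated were 3.38, 2.23 and 1.22, against 1.83 over all regions. The chromosome 13 ratios rest on its 8 untreated regions. With each list held to its 9709 highest regions they were 1.375 (cisplatin) and 1.625 (Pt-ttpy), the latter against 1.33 on chromosome 22. With numbers missing between kept untreated members added, untreated counts were 21, 96 and 97 on chromosomes 13, 14 and 22. The chromosome 13 ratios were then 1.86 and 1.29, and the Pt-ttpy ratio on chromosome 22 was 1.47. Over the 3 areas together the ratios to untreated were 2.12 for cisplatin and 1.75 for Pt-ttpy. When each list was held to its 9709 highest regions, which sets the ratio over all regions to 1 by construction, they were 0.962 and 0.994. Within each area the densest 1 Mb was the first, with 6, 30 and 24 regions on chromosome 13, 85, 117 and 102 on chromosome 14, and 16, 56 and 46 on chromosome 22, where the second 1 Mb tied with it in the untreated list. These areas took 1.62% of the untreated list, 1.30% of the cisplatin list and 1.54% of the Pt-ttpy list.

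The chromosomes also differed in the share of their regions that lay in the area. On chromosome 22 nearly all regions of the chromosome lay in the area: 88.9% for untreated, 89.5% for cisplatin and 90.5% for Pt-ttpy. On chromosome 14 the area held 88.5% for untreated but 46.8% for cisplatin and 68.9% for Pt-ttpy. On chromosome 13 it held 16.7%, 17.8% and 23.9%. The rest of the 3 chromosomes together carried 59 untreated, 340 cisplatin and 148 Pt-ttpy regions.

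**Figure D1:**
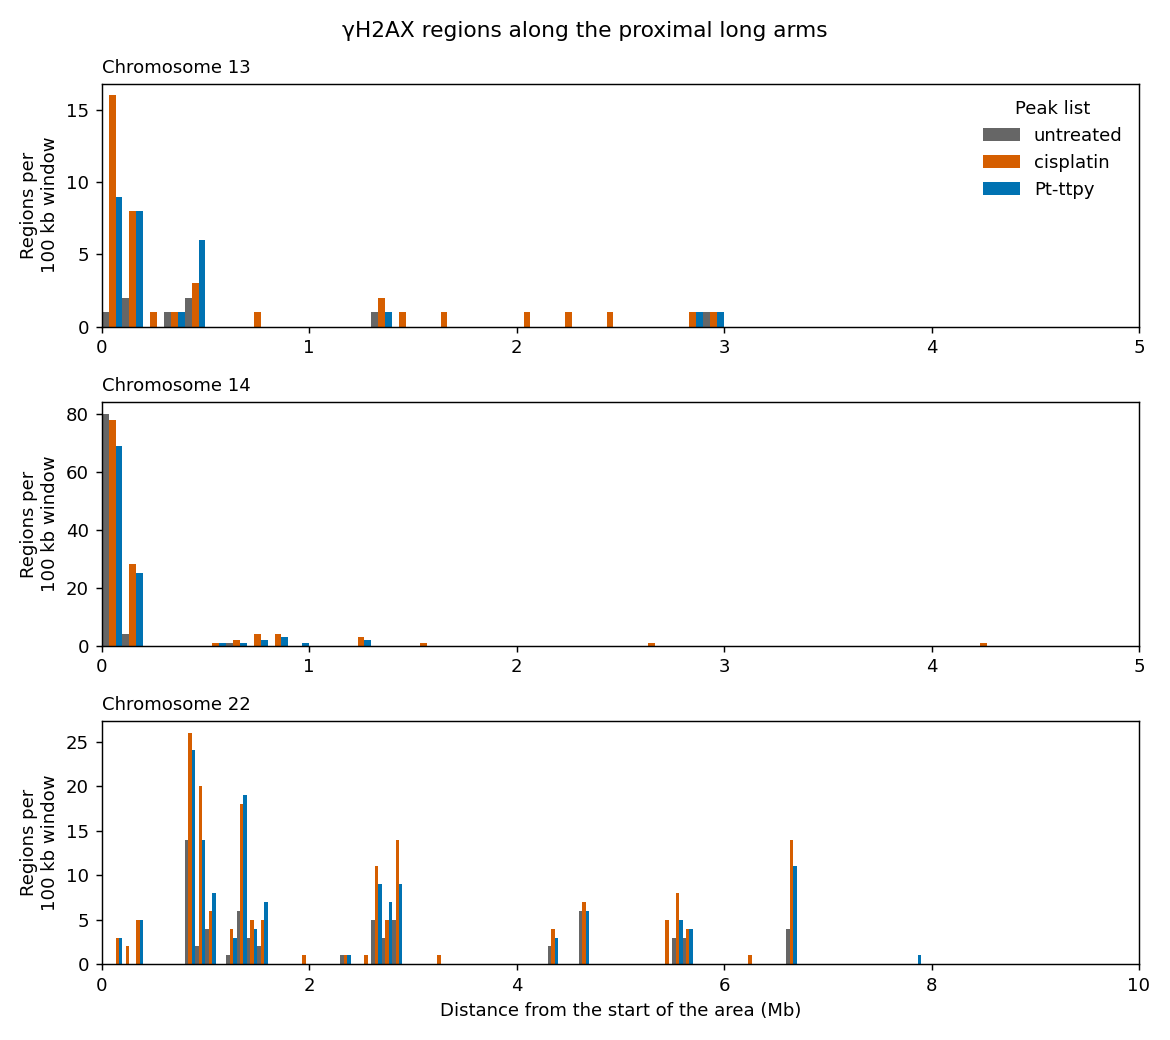
Number of γH2AX regions in each 100 kb window (y axis) against the distance from the start of the area in Mb (x axis), for the untreated (grey), cisplatin (orange) and Pt-ttpy (blue) lists; the y scales differ between panels and the chromosome 22 panel covers 10 Mb. Chromosome 14 has 1 tall group at the very start, with 80, 78 and 69 regions in the first window, chromosome 22 has several separate groups, and the far ends of all 3 areas are nearly or fully empty.

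The chromosome 14 regions were packed into the first 60 kb of the area, a bound set once the positions had been seen. This block held 80 of the 85 untreated regions, 56 of the 123 regions with cisplatin and 54 of the 104 with Pt-ttpy. Although the treated lists had fewer regions there than the untreated list, their regions took up more of it. The called length was 22.7 kb (37.8% of the block) without drug, 44.3 kb (73.8%) with cisplatin and 41.7 kb (69.6%) with Pt-ttpy. Median widths within it were 190, 452 and 532 bp in the order untreated, cisplatin and Pt-ttpy. Regions of 1000 bp or more numbered 3, 18 and 13. The count of regions therefore went down while the called length went up. Pieces that were separate in the untreated list lay within single regions of the treated lists. The widest region of both treated lists shows this: it ran from 19034639 to 19038792 after cisplatin (4154 bp) and from 19034547 to 19038770 after Pt-ttpy (4224 bp), and each lay over 7 untreated regions. Another Pt-ttpy region, from 19009173 to 19012976, lay over 7 untreated and 3 cisplatin regions. The 80 untreated regions of the block carried only 72 peak numbers, so some were pieces of 1 numbered peak. In the treated lists each region of the block had its own number. Over the whole lists, untreated regions went down to 1 bp, where both treated lists stop at 101 bp. How far this sets the contrast in counts and lengths was not tested.

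**Figure D2:**
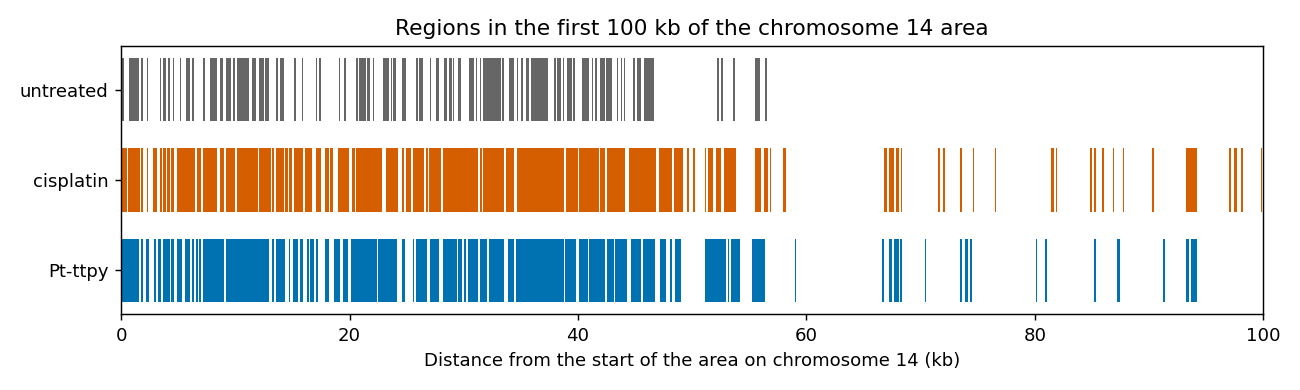
Regions of the untreated, cisplatin and Pt-ttpy lists (rows) in the first 100 kb of the chromosome 14 area, drawn to scale against the distance from its start in kb (x axis). The untreated row is made of short separate bars that stop before 60 kb, and both treated rows are filled by longer bars in the same block and go on beyond it with short, scattered ones.

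The strongest chromosome 14 regions were in this block, apart from 1 farther out. First in all 3 lists was a region at 19007792 to 19008408 in untreated cells (fold 40.0). It corresponded to 19007195 to 19008419 after cisplatin (fold 28.6) and to 19007124 to 19009040 after Pt-ttpy (fold 22.1). It ranked 203 of 9709, 146 of 25671 and 159 of 17789 in its own list. Next came a region at 19010144 to 19011234 in untreated cells, ranked 250, with matches ranked 221 after cisplatin and 245 after Pt-ttpy. The 5 highest untreated regions of the chromosome 14 area all overlapped the 5 highest of each treated list. The region away from the block was at 19629829 to 19630254 in untreated cells, 3rd in each list within this area. It is also the last untreated member on chromosome 14.

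Beyond the block the lists parted. From 60 to 200 kb into the chromosome 14 area the untreated list held 4 regions (0.342 kb), the cisplatin list 50 (11.99 kb) and the Pt-ttpy list 40 (9.50 kb). These treated regions were weak, with median folds of 3.46 after cisplatin and 3.39 after Pt-ttpy, where the block had medians of 6.49 and 6.17. From 1 Mb onward the chromosome 14 area held 0 untreated, 6 cisplatin and 2 Pt-ttpy regions. The place at 20299882 to 20300110 in the Pt-ttpy list, with a fold of 5.07, was among them and overlapped a cisplatin region with a fold of 4.85. The nearest untreated region was 669627 bp away.

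Chromosome 13 had few regions, and each of its 8 untreated regions was met by a region of both treated lists. The highest in every list was a place of about the same extent in each: 20370465 to 20371537 in untreated cells, 20370454 to 20371535 after cisplatin and 20370446 to 20371541 after Pt-ttpy. Its fold was 9.62, 9.001 and 9.60 over the backgrounds of the respective lists. It stood in the top 16.3% of the untreated list, 5.53% of the cisplatin list and 5.86% of the Pt-ttpy list. Its ranks in the same order were 1583, 1419 and 1042, in lists of unequal length. The place at 19031307 to 19032072, named by its cisplatin edges, had folds of 7.82, 6.75 and 6.37 in the untreated, cisplatin and Pt-ttpy lists. The last untreated member of the area, at 21951417 to 21951518, had a fold of 6.62, with 5.19 after cisplatin and 6.49 after Pt-ttpy. Their ranks differed in order between the drugs. The place at 19385549 to 19385689 was second in the cisplatin list, in its top 9.33%, but only in the top 39.8% of the Pt-ttpy list and 42.9% of the untreated list. Its ranks were 2394 (cisplatin), 7081 (Pt-ttpy) and 4164 (untreated). The place at 19101923 to 19102189 was second in the Pt-ttpy list, in its top 12.2%, and in the top 16.5% of the cisplatin and 66.8% of the untreated list. Here the ranks were 2179 (Pt-ttpy), 4240 (cisplatin) and 6481 (untreated).

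The treated regions of chromosome 13 also crowded towards the start of the area. Its first 100 kb had 1 region without drug, 16 with cisplatin and 9 with Pt-ttpy. From 100 kb to 1 Mb there were 5, 14 and 15, and beyond 1 Mb 2, 9 and 3. Cisplatin thus led in the first and last of these stretches and Pt-ttpy, by 1 region, in the middle one. Of the 6 clusters of the chromosome 13 area that held cisplatin regions alone, all had a single region, where a cluster joins regions no more than 50 kb apart (a distance chosen after the data were seen).

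Chromosome 22 carried its regions in separate clusters rather than next to the start of the area. At a joining distance of 50 kb the 3 lists formed 21 clusters, and 13 of them held regions of all 3 lists. These 13 held all 64 untreated regions, and 91.2% (cisplatin) and 93.0% (Pt-ttpy) of the treated ones. The largest spanned 16848437 to 17048911 and counted 20 untreated regions, 52 with cisplatin and 46 with Pt-ttpy. It includes the densest 100 kb window of the area, at 16.8 to 16.9 Mb, with 14, 26 and 24. The next, from 17349036 to 17392834, had 6, 18 and 19. The cluster from 22613598 to 22665869 had 4, 14 and 11. Clusters that hold strong regions differed in how far their counts went up. From 18684988 to 18723226 the counts were 6 for untreated, 7 for cisplatin and 6 for Pt-ttpy, of which 3, 6 and 5 stood in the top 10% of their list. From 20656576 to 20692965 there were likewise 6, 7 and 6 regions, with 1, 5 and 4 in the top 10%. From 18781358 to 18889292, where the strongest regions of the chromosome lie, the numbers were 5, 15 and 13, with 4, 5 and 5 in the top 10%. The top 10% takes in more regions in a longer list, so these numbers give no order between lists. Another 3 sets of regions before 16.35 Mb had no untreated region: that from 16109826 to 16116724 held 3 regions of each drug, that from 16279220 to 16349239 held 6 cisplatin and 5 Pt-ttpy regions, and between them lay a single cisplatin region.

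The lists ranked the strong chromosome 22 regions almost alike. The same 6 places were the highest 6 of each list, and the highest 10 of each list also overlapped the highest 10 of the others. The first, with an untreated fold of 44.2, ran from 18883710 to 18884154 in that list. Its cisplatin match ran from 18883650 to 18884153 (fold 30.1) and its Pt-ttpy match from 18883651 to 18884155 (fold 23.6). The ranks were 151, 109 and 115 of the respective lists. The second was at 18878003 to 18878670 in untreated cells, in ranks 203, 170 and 178. A further member of the 6, at 18881424 to 18882140, lay between them. The others were at 18688124 to 18688684, at 20689206 to 20689586 and at 21520392 to 21520626, by their untreated edges. The last pair is tied in the untreated list, at a fold of 24.4, and was in reversed order between the drugs: folds were 20.6 and 19.7 after cisplatin, and 17.2 and 17.6 after Pt-ttpy.

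Wide stretches of each area held no region in any list. None was called from 22 to 24 Mb on chromosome 13 or from 24 to 26 Mb on chromosome 22, and from 22 to 23 Mb on chromosome 14. A called list shows only what passed the peak caller, so these stretches had no region rather than no signal. The window from 19 to 20 Mb on chromosome 22, between clusters, held 1 cisplatin region and no other. After the last chromosome 13 member, the next region outside the area was at 28033699 to 28034120 in untreated cells (fold 35.5), at 28033696 to 28034125 after cisplatin (fold 23.5), and at 25527184 to 25527347 after Pt-ttpy (fold 3.39). The next on chromosome 22 began at 29516093, 29049921 and 28593013 in the untreated, cisplatin and Pt-ttpy lists. The upper bound of each area thus fell in a stretch without a region in any of the lists. On chromosome 14 after cisplatin the last member, at 23211119 to 23211219, had a fold of 3.98, and the next region, at 24480474 to 24480602, a fold of 3.29.

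Almost every untreated member was called after either drug. By an overlap of 1 bp or more, 151 of 157 untreated members lay on a cisplatin region, or 96.2%, where the share over all untreated regions was 96.1%. On Pt-ttpy regions lay 152, or 96.8%, against 95.1% over all. Both shares were close to those of the whole list. The 9 untreated members that missed at least 1 treated list were weak, with folds of 3.61 to 4.81, and 2 of them, both on chromosome 22, missed both: one at 16863730 to 16863906, 92 bp from a cisplatin and 42 bp from a Pt-ttpy region, and one at 22629392 to 22629456, 107 and 182 bp away. These 9 were singled out after their values were seen.

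In the other direction, most treated members lay off the untreated list. Of the cisplatin members 109 of 333 overlapped an untreated region, or 32.7%, against 27.3% of all cisplatin regions. Of the Pt-ttpy members 115 of 274 did, or 42.0%, against 39.5% over all. By chromosome, the cisplatin share was 20.5% on 13, 34.1% on 14 and 34.5% on 22, and the Pt-ttpy share was 29.6%, 44.2% and 42.7%. Chromosome 13 was the lowest for both drugs, with only 39 and 27 regions behind its shares. The 95% Wilson interval of its cisplatin share, 10.8% to 35.5%, held the values of the other 2 chromosomes. Such intervals take regions as independent, which clustered regions are not. The order of the chromosomes changed when regions within 1 kb were merged, with chromosome 14 then lowest for both drugs. The cisplatin shares were then 22.2% on 13, 14.3% on 14 and 36.3% on 22. The Pt-ttpy shares were 30%, 24.1% and 44.6%.

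The lists of the 2 drugs overlapped each other more than either overlapped the untreated list. Of the Pt-ttpy members 194 lay on a cisplatin region, or 70.8%, against 69.9% of all Pt-ttpy regions. Of the cisplatin members 185 lay on a Pt-ttpy region, or 55.6%, against 47.8% of all cisplatin regions. Chromosome 14 had the highest shares, at 79.8% of its Pt-ttpy and 62.6% of its cisplatin regions, and chromosome 13 the lowest, at 55.6% and 35.9%. With regions within 1 kb merged, chromosome 14 no longer led. Its shares were then 62.1% (Pt-ttpy) and 48.6% (cisplatin), against 63.9% and 52.0% on chromosome 22. Counted in bases, 66.8 kb were called in both treated lists, of which 42.5 kb lay on chromosome 14. The 66.8 kb are 74.2% of the 90.1 kb called after Pt-ttpy and 63.6% of the 105.1 kb called after cisplatin. The shares in bases over the whole lists were not worked out.

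**Figure D3:**
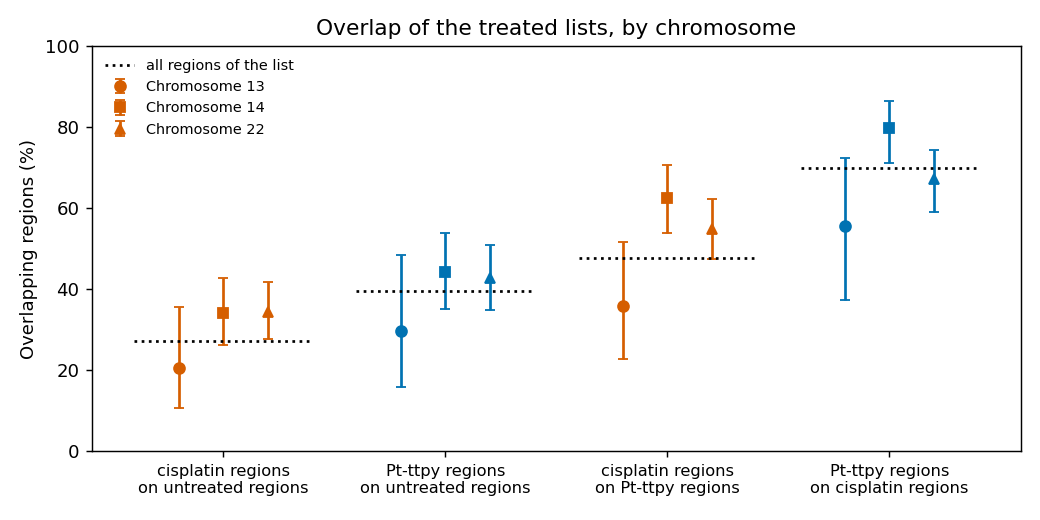
Percent of the regions of one treated list that overlap a region of another list by 1 bp or more (y axis), for 4 pairs of lists (x axis), on chromosomes 13 (circles), 14 (squares) and 22 (triangles). Bars are 95% Wilson intervals that cover counting only, and dotted lines give the share over all regions of the list; chromosome 13 is lowest in each pair and chromosome 14 is highest in 3 of the 4.

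To count the 3 lists in 1 unit, regions that overlapped were merged into 397 places, where all regions of the lists merge into 30004. All 3 lists held 99 of the 397 (24.9%), against 20.9% of the 30004. Both treated lists but not the untreated list held 68 (17.1%, against 16.1%), the cisplatin list alone 148 (37.3%, against 44%) and the Pt-ttpy list alone 77 (19.4%, against 17.4%). The remaining 5 were 2 places of the untreated list alone and 3 of the untreated and Pt-ttpy lists. No place was held by the untreated and cisplatin lists only. The make-up differed along with the chromosome: places of all 3 lists were 8 of 51 on chromosome 13, 32 of 126 on chromosome 14 and 59 of 220 on chromosome 22, and places of cisplatin alone were 25, 46 and 77. Places of a single drug were short, with a median of 135 bp for cisplatin and 120 bp for Pt-ttpy, against 261 bp for those of both drugs and 378 bp for those of all 3 lists.

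**Figure D4:**
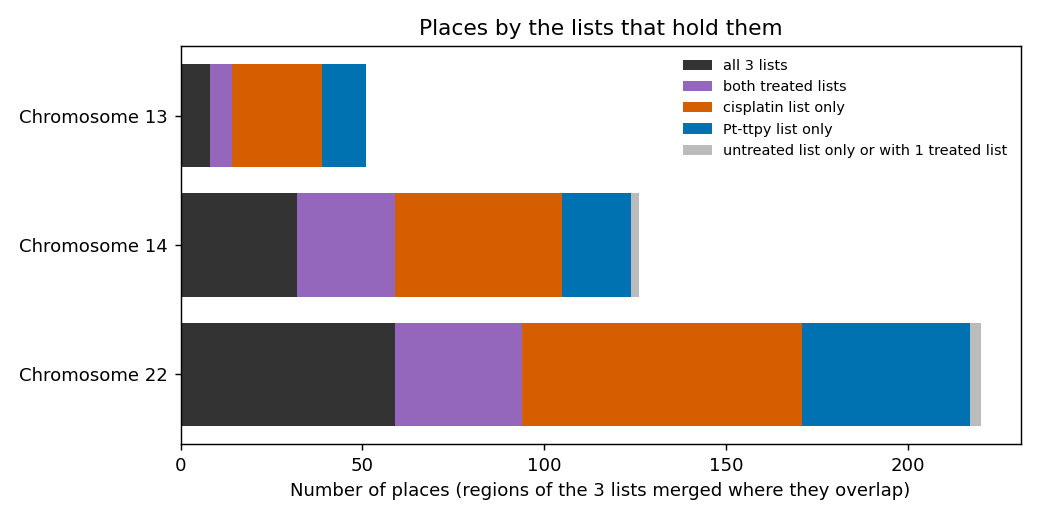
Number of merged places (x axis) on each chromosome (y axis), split by which lists hold them. Places of all 3 lists number 8, 32 and 59 on chromosomes 13, 14 and 22, and places of the cisplatin list only, 25, 46 and 77, are the longest segment of each bar.

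Treated members off the untreated list had lower folds than those on it. The 224 cisplatin members off it had a median fold of 3.64, against 7.10 for the 109 on it, and the median of the whole cisplatin list was also 3.64. The 159 Pt-ttpy members off it had a median fold of 3.52, against 6.37 for the 115 on it and 3.91 for the whole list. All regions off the untreated list, members or not, had medians of 3.29 (cisplatin) and 3.39 (Pt-ttpy). Of the cisplatin regions in the top 10% of their list, 56 were members and all 56 lay on an untreated region, as did all 41 such Pt-ttpy members. Nearly all regions of the top 10% did so wherever they lay, 98.8% for cisplatin and 99.8% for Pt-ttpy. A -log10 q of at least 5 was reached by 38.8% (cisplatin) and 39.0% (Pt-ttpy) of members off the untreated list, where all regions off it reached it in 29.1% and 34.7%. For all members these shares were 77.1% in the untreated list (73.9% of that whole list), 57.1% after cisplatin (46.9%) and 60.9% after Pt-ttpy (57.6%).

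The strongest regions off the untreated list were named on each chromosome. On chromosome 22 the Pt-ttpy region at 17500556 to 17500692 had a fold of 5.72 and lay 248 bp from the nearest untreated region. It overlapped a cisplatin region with a fold of 4.67. The cisplatin region at 16911293 to 16911465 had a fold of 5.37 and lay 5664 bp from an untreated and 482 bp from a Pt-ttpy region. That at 17499556 to 17499700, also with a fold of 5.37, was 340 bp from an untreated region and overlapped a Pt-ttpy region with a fold of 4.56. The Pt-ttpy region at 16882905 to 16883456, with a fold of 4.81, lay 16933 bp from an untreated region and on a cisplatin region with a fold of 4.85. On chromosome 14 the Pt-ttpy region at 19053106 to 19053248, with a fold of 5.72, lay inside a cisplatin region that itself overlapped an untreated region. The cisplatin region at 19024909 to 19025403, with a fold of 5.02, lay 7 bp from an untreated region, and that at 19067200 to 19067668, with the same fold, 10680 bp from one. On chromosome 13 the place at 19089743 to 19089896 was called after both drugs, with folds of 4.85 after cisplatin and 5.07 after Pt-ttpy, and lay 11069 bp from an untreated region. The cisplatin region at 21284569 to 21284675, with a fold of 4.85, lay 532206 bp from any Pt-ttpy region. The Pt-ttpy region at 19409541 to 19409676, with a fold of 5.33, lay 3204 bp from a cisplatin region. Several of these regions were thus close neighbours of untreated ones, and others stood far from any.

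Regions were widest on chromosome 14, in every list by their median. In the order untreated, cisplatin and Pt-ttpy, median widths were 110, 145 and 168 bp on chromosome 13, 188, 220 and 248 bp on chromosome 14, and 131, 157 and 159 bp on chromosome 22. On chromosome 14, 10.6% of untreated, 23.6% of cisplatin and 30.8% of Pt-ttpy regions were 500 bp or wider, against 4.69%, 7.60% and 4.90% on chromosome 22. On chromosome 13 they were 25% (of only 8 regions) without drug, 7.69% with cisplatin and 7.41% with Pt-ttpy. Over the whole lists the shares were 12.7%, 11.3% and 15.0%. From 100 kb to 1 Mb into the chromosome 14 area the median widths were 86, 179 and 180 bp. With regions within 1 kb merged, chromosome 14 had the highest median for cisplatin only (275 bp). The untreated median was then 858.5 bp on chromosome 13 (6 regions) and 279 bp on chromosome 14 (10 regions). The Pt-ttpy median was 244 bp on chromosome 22 and 220 bp on chromosome 14. The widest on chromosome 22 were 717 bp in the untreated list, at 18881424 to 18882140, and a place at 18621708 to 18622794 after cisplatin (1087 bp) and 18621806 to 18622813 after Pt-ttpy (1008 bp). The latter was weak, with folds of 4.50 and 4.17, and the untreated region inside it, from 18622153 to 18622419, had a fold of 4.51. The narrowest treated member was 101 bp in each drug's list, and untreated members went down to 6 bp. Summed over members, the called length was 38.1 kb without drug, 105.1 kb with cisplatin and 90.1 kb with Pt-ttpy.

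**Figure D5:**
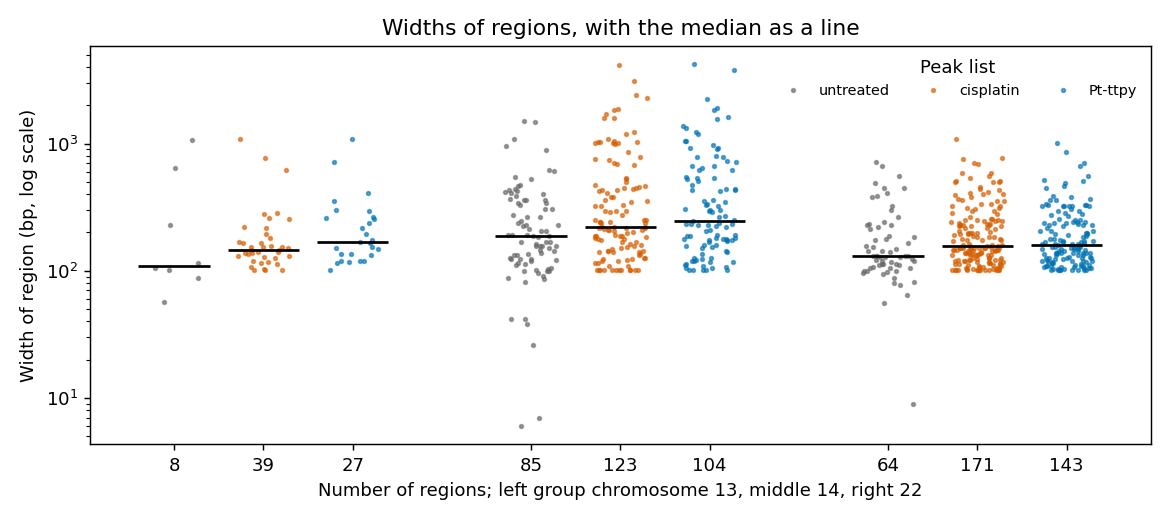
Width in bp on a log scale (y axis) of each region (points) of the untreated (grey), cisplatin (orange) and Pt-ttpy (blue) lists on chromosomes 13, 14 and 22 (groups from left to right, with the number of regions under each); black lines are medians. Both treated lists stop sharply at 101 bp and reach their greatest widths, 4154 and 4224 bp, on chromosome 14.

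Where a place had exactly 1 region in each list, the edges could be compared, and 72 places allowed this, 57 of them on chromosome 22. Their median widths were 131 bp without drug, 226 bp with cisplatin and 239 bp with Pt-ttpy. The cisplatin region was wider than the untreated one at 63 of the 72, and the Pt-ttpy region at 62. The treated lists have no region below 101 bp. Untreated regions under that width at these places were 9, 56, 77, 80, 81, 88, 88, 95, 96, 99, 100 and 100 bp wide. At these places the treated regions were wider by construction. How far the limit of 101 bp sets the direction at the other places was not tested. Between the drugs neither was wider as a rule, with Pt-ttpy wider at 32 and narrower at 40. The edges of the cisplatin and Pt-ttpy regions differed by a median of 17 bp at the start and 12 bp at the end, and the summits by a median of 9.5 bp. At 63 of the 72 places the summits of the drugs lay within 50 bp of each other. Widths, edges and summits were not compared at matched places outside the areas. These values are thus not shown to be particular to the areas. Over all 99 places of the 3 lists, the called length was 37.5 kb without drug, 63.6 kb with cisplatin and 62.0 kb with Pt-ttpy, so at these places the lists of the drugs had nearly the same length.

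Cisplatin and Pt-ttpy, both platinum complexes, had lists of different length in these areas. The doses are matched by effect on the cells and not by amount. There were 1.22 cisplatin members for each Pt-ttpy member, with 1.44 on chromosome 13, 1.18 on chromosome 14 and 1.20 on chromosome 22, where all regions of the lists stand at 1.44. With equal numbers of top regions, where the ratio over all regions is 1 by construction, it was 0.968 over the 3 areas. With 1 list for each drug and different backgrounds, an effect of the drug and one of calling depth cannot be told apart.

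The missing untreated numbers touch every count of regions called only after treatment. Between kept untreated neighbours that both lie in an area, 13 numbers were missing on chromosome 13, 19 on chromosome 14 and 33 on chromosome 22. A further 43 numbers, 5, 28 and 10 by chromosome, fell before the first or after the last kept untreated region and may lie inside or outside the area. With the 65 inside numbers the untreated count would be 214 peak numbers in place of the 149 that are kept. The 65 inside numbers and the 43 at the ends were placed wherever they could match a treated region. They could then account for 81 of the 224 cisplatin members off the untreated list, and 68 of the 159 Pt-ttpy members. These counts would be upper bounds only if no missing number matched several treated regions, which is not known. The 149 kept numbers stood for 157 regions, and the untreated region at 19031726 to 19033243 on chromosome 14 overlapped 2 Pt-ttpy regions. What lay at the missing numbers was not analysed here.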

How the data were processed

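Reads of γH2AX-bound chromatin (single reads of 50 bases, fragments of 200 to 700 bp per the labels' protocols) were processed by the submitters with BWA 0.7.5 and MACS2 2.1.0 on hg19, per the submitters' processing notes. The sources used here do not give how replicates were combined, which control was used or how peaks were called. The deposited lists give each region's fold ratio over background, its -log10 q-value (a -log10 p-value column was not used), a whole-number score made from that -log10 q, and a summit offset. These are the authors' values and were used only within a list.

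Regions on chromosomes 1 to 22 and X entered. Members were chosen by midpoint. Overlap was 1 bp or more, starts are 1-based, and ranks follow the -log10 q within a list. The regions named were the 2 with the highest -log10 q and the widest per chromosome and list, the 2 highest of each treated list off the untreated list, and the densest windows. Others named (places of all 3 lists, clusters, regions at the bounds) were chosen after their values were seen. Members and rules were chosen with earlier results of these data known. No genes and no sequences are given, since the reference tables at hand are of another build (GRCh38). Code was tested on simulated data. The tools were matplotlib 3.10.9, scipy 1.17.1, pandas 2.3.3, numpy 2.4.6 and Python 3.11.15.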

Additional observations from a re-analysis of the deposited data

How the results depend on the processing

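Over all 3 areas the ratio of cisplatin to untreated regions, 2.12 as deposited, was 1.57 when only a -log10 q from 5 upward counted, 1.11 from 10 upward, and 0.962 with equal numbers of top regions from each list. It was 2.88 with regions within 1 kb merged, 1.56 with missing untreated numbers added (214 untreated peak numbers, 149 kept and 65 missing, in place of 157 regions), and 2.60 without the first 1 Mb of each area, which is also the densest 1 Mb window of each. The ratio of Pt-ttpy to untreated, 1.75, was 1.38, 1.09 and 0.994 under the stricter thresholds and equal numbers, 2.32 after merging and 1.28 with missing numbers. The ratio of cisplatin to Pt-ttpy, 1.22, was 1.01 at a -log10 q of at least 10 and 0.968 with equal numbers. Equal numbers set each ratio over all regions to 1 by construction. On chromosome 14 cisplatin to untreated turned from 1.45 to 0.795 at a -log10 q of at least 10 and to 0.671 with equal numbers, and was 3.50 with regions within 1 kb merged (35 against 10). The cause was not tested.

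The cisplatin share of the list in these areas, 1.30%, was 1.58% and 1.57% at the stricter thresholds and 1.56% with equal numbers, and the untreated share, 1.62%, was 2.02% at a -log10 q of at least 10. The Pt-ttpy share stayed within its 95% binomial interval in every setting run.

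Overlap of the treated lists with the others rose with stricter thresholds. Shares over all regions were not worked out at these settings, so the rise is not shown to be particular to these areas. Of all regions in the top 10% of their list, 98.8% (cisplatin) and 99.8% (Pt-ttpy) lay on a region of the full untreated list. Cisplatin on untreated, 32.7%, was 45.8%, 67.9% and 64.9% at a -log10 q from 5, from 10 and for equal numbers, and Pt-ttpy on untreated, 42.0%, was 53.9%, 67.5% and 67.3%. Cisplatin on Pt-ttpy, 55.6%, was 65.8%, 83.3% and 73.5%, and Pt-ttpy on cisplatin, 70.8%, was 76.0% and 88.0% at the 2 thresholds. Allowing 1 kb gave 47.7% and 57.7% on untreated for cisplatin and Pt-ttpy, 74.5% for cisplatin on Pt-ttpy and 85.0% the other way. Asking for 50% of the length gave 22.5%, 28.5%, 48.3% and 63.9% in the same order. Merging gave 48.8% for cisplatin on Pt-ttpy and 61.4% the other way, and without the densest windows Pt-ttpy on untreated was 48.0%. Untreated on cisplatin and on Pt-ttpy were 89.2% and 90.4% with equal numbers and 99.4% and 100% within 1 kb, and untreated on Pt-ttpy was 100% after merging.

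Median widths of 156 bp (untreated), 179 bp (cisplatin) and 181 bp (Pt-ttpy) rose to 224, 401 and 335 bp at a -log10 q of at least 10. At 5 the treated medians were 229.5 and 233 bp, with equal numbers 253 and 241.5 bp, and after merging 241.5 and 237.5 bp. Of 93 values over all 3 areas under other settings, 39 stayed within the 95% binomial interval of the value reported.

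No paired analysis was possible because both samples of a condition are tied to 1 list, and for the same reason no replicate could be left out. For chromosome 14 no ratio to untreated exists without its first 1 Mb, where all its untreated regions lie.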
